A study of Mus musculus with 6 samples.

Results

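Immunoglobulin constant region genes and 3 genes known from antibody-secreting cells were followed in RNAseq of mammary tumors. The members were the rows whose Ensembl ID maps on GRCm38 to Igkc, Ighm, Igha, Ighg1, Ighg2b, Ighg2c, Ighg3, Jchain, Mzb1 and Derl3. They are 10 of the 54532 gene IDs in the files, 7 of them constant region genes. Of these members, 6 (Igkc, Ighm, Igha, Ighg1, Jchain and Derl3) reached a mean of 0.5 FPKM over the 6 tumors and were tested. The other 4 (Ighg2b, Ighg2c, Ighg3 and Mzb1) did not, and are given by their reads. FPKM is a read count scaled by the exon length of a gene and the size of the library.

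The study compared 3 tumors of mice given anti-PD-1 mAb with 3 tumors of mice given a matching isotype IgG mAb. All 6 came from NeuT/ATTAC mice, in which the MMTV promoter drives Erbb2 in the mammary epithelium (MMTV-NeuT) and the FAT-ATTAC transgene lets AP20187 ablate adipocytes and induce fibrosis. The FAT-ATTAC mice came from a C57BL/6 background and were crossed into FVB. In both groups AP20187 was given at 0.4 mg/kg, starting at 6 weeks of age, biweekly by the labels and triweekly by the methods. The antibodies were given at 100 μg, 2 times per week, starting at 8 weeks of age. The labels do not say that each tumor came from a separate mouse, so p-values here measure the spread between these tumors. The legend of the study describes pooled RNA per group, whereas the files hold 3 separate tumors per group.

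A B cell builds its antibody from a heavy chain, whose constant gene sets the class, and a kappa or lambda light chain. Naive B cells express Ighm and Ighd, and class switching moves the same variable region onto Ighg, Igha or Ighe. Plasma cells then transcribe heavy, light and J chain genes at high levels and enlarge the endoplasmic reticulum under Xbp1, with Mzb1 as a chaperone of antibody assembly and Derl3 as a component of ER-associated degradation. In the mammary gland, polymeric IgA and IgM joined by the J chain are carried into milk by the receptor Pigr, and Ccl28 attracts IgA plasma cells through Ccr10.

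The IgG subclass genes are close copies, and how far their reads could be told apart depended on shared sequence. The hinge exon (exon 2, minus strand of chromosome 12, GENCODE transcripts on GRCm38) is shown for each subclass because it is short enough to set the 4 side by side, with 39, 66, 63 and 48 bases in Ighg1, Ighg2b, Ighg2c and Ighg3. Capitals mark bases in a run of 12 or more that another immunoglobulin constant member also holds.
Ighg1 hinge, chr12:113329844-113329882: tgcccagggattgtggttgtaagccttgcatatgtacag
Ighg2b hinge, chr12:113307261-113307326: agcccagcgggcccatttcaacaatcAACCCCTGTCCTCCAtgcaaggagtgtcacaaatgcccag
Ighg2c hinge, chr12:113288263-113288325: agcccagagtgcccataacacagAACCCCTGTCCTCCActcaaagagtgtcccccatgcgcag
Ighg3 hinge, chr12:113360529-113360576: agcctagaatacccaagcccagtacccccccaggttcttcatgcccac
Only the Ighg2b and Ighg2c hinges held such a run, of 15 bases. Over whole transcripts, 4.15% of the 50-base words of Ighg2b and 5.49% of those of Ighg2c occurred in another gene, against 1.58% for Ighg3, 0.393% for Ighg1 and 0% for Igkc, Ighm and Igha. Reads of Ighg2b and Ighg2c are therefore uncertain where they fell in the shared part. Some inbred strains carry Ighg2a in place of Ighg2c, and which of these genes the crossed mice carry is not given in the sources used here.

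Library size implied by the step between FPKM values lay between 22009893 and 25596232 reads. Some libraries stood apart. IgG tumor 2 and anti-PD-1 tumor 1 held transcripts of salivary gland proteins at high level (Bpifa2 at 3033 and 1273 FPKM, at most 54.5 in the other 4 tumors), and IgG tumor 2, anti-PD-1 tumor 1 and anti-PD-1 tumor 2 held skeletal muscle transcripts. The defining genes of the labelled tissue were present throughout, Epcam at 690 to 1150 FPKM and Erbb2 at 20.3 to 31.4 FPKM. Both were higher in every anti-PD-1 tumor than in any IgG tumor, with means of 1086 against 812 FPKM for Epcam (adjusted p = 0.462 from limma) and 27.5 against 21.5 FPKM for Erbb2 (adjusted p = 0.424 from limma). They were 2 of 5 epithelial genes listed, where groups did not overlap in 18.1% of all genes tested. Groups overlapped for Krt8, Krt18 and Cdh1, and the Cdh1 mean was lower in anti-PD-1 tumors (76.2 against 97.6 FPKM). The pan-leukocyte gene Ptprc stood at 1.21 to 2.22 FPKM, and the adipocyte gene Adipoq at 0.0299 to 1.19 FPKM.

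Igkc, the kappa light chain constant gene (ENSMUSG00000076609, chromosome 6 from 70726435 to 70726966, plus strand), had the highest mean FPKM of the constant genes. It stood at 5.29, 31.9 and 7.08 FPKM in IgG tumors 1 to 3 (62, 407 and 92 reads) and at 19.7, 9.15 and 16.0 FPKM in anti-PD-1 tumors 1 to 3 (268, 118 and 202 reads). The highest and the 2 lowest tumors were all IgG tumors, so that the anti-PD-1 tumors lay inside the IgG range. The means were 14.8 ± 14.9 FPKM (SD, n = 3) in IgG and 14.9 ± 5.35 FPKM (SD, n = 3) in anti-PD-1 tumors. On the log2(FPKM + 1) scale the fold change was 0.37 with a standard error of 0.61 (limma, unadjusted p = 0.566, adjusted p = 0.835), smaller than the spread between tumors. Without IgG tumor 2 it was 1.096 (unadjusted p = 0.0177, adjusted p = 0.761 from limma), and without IgG tumor 1 it was -0.09. In bulk RNA, fewer cells of a type and less RNA per cell cannot be told apart, here and for every gene below.

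Light chains other than kappa gave few reads. Iglc1 had 8 reads in IgG tumor 2 and 2 in anti-PD-1 tumor 2. Iglc2 had 21 reads in IgG tumor 2 and 10 in anti-PD-1 tumor 1, and Iglc3 had 9 in IgG tumor 2 alone. These lambda constant genes had 0 reads in the remaining tumors. Kappa accounted for 91.4% of light chain constant FPKM in IgG tumor 2, for 96.9% in anti-PD-1 tumor 1 and for 98.1% in anti-PD-1 tumor 2, and for 100.0% in the other 3 tumors.

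The heavy chain constant genes lie on the minus strand of chromosome 12, between 113254830 and 113422730. Ighm, the gene of IgM (ENSMUSG00000076617), stood at 4.12, 11.5 and 4.11 FPKM in the IgG tumors (171, 521 and 189 reads) and at 4.64, 5.23 and 11.05 FPKM in the anti-PD-1 tumors (224, 239 and 495 reads). IgG tumor 2 and anti-PD-1 tumor 3 were high, and the other 4 tumors lay close together. The log2 fold change was 0.13 (standard error 0.43, unadjusted p = 0.775, adjusted p = 0.925 from limma). Ighd, expressed with Ighm in naive B cells, had 6, 62 and 27 reads in the IgG tumors and 7, 5 and 14 in the anti-PD-1 tumors. Ighd was thus highest in IgG tumors 2 and 3, and it did not pass the filter.

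Igha, the gene of IgA (ENSMUSG00000095079), stood at 0.903, 4.34 and 2.35 FPKM in the IgG tumors (53, 278 and 153 reads) and at 4.45, 0.572 and 1.42 FPKM in the anti-PD-1 tumors (304, 37 and 90 reads). Both groups held a tumor above 4 FPKM and a tumor below 1 FPKM. The log2 fold change was -0.23 (standard error 0.53, unadjusted p = 0.672, adjusted p = 0.880 from limma). It turned to 0.12 without IgG tumor 2 and to 0.17 without anti-PD-1 tumor 2.

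Jchain, the protein that joins IgA dimers and IgM pentamers (ENSMUSG00000067149, chromosome 5 from 88519809 to 88527891, minus strand), stood at 0.325, 3.48 and 0.96 FPKM in the IgG tumors (18, 210 and 59 reads) and at 1.12, 0.18 and 1.24 FPKM in the anti-PD-1 tumors (72, 11 and 74 reads). IgG tumor 2 was highest and anti-PD-1 tumor 2 lowest, and the groups overlapped. The log2 fold change was -0.35 (standard error 0.48, unadjusted p = 0.487, adjusted p = 0.795 from limma), and without IgG tumor 2 it was 0.14. Over the 6 tumors the log2 values of Jchain correlated with those of Igkc (Pearson's r = 0.84) and Igha (r = 0.81), given as a description over 6 points that share their libraries. Pigr, which carries polymeric IgA across epithelium, did not follow them. It stood at 25.4, 37.2 and 22.0 FPKM in the IgG tumors and at 18.2, 83.1 and 16.4 FPKM in the anti-PD-1 tumors, highest in the tumor with the lowest Igha and Jchain.

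Among the IgG subclasses, Ighg1 (ENSMUSG00000076614) stood at 0.21, 0.948 and 0.348 FPKM in the IgG tumors (12, 59 and 22 reads) and at 0.181, 0.461 and 0.91 FPKM in the anti-PD-1 tumors (12, 29 and 56 reads). The groups covered nearly the same range, and the log2 fold change was 0.02 (standard error 0.29, unadjusted p = 0.951, adjusted p = 0.984 from limma). Ighg2b (ENSMUSG00000076613), whose hinge is printed above with the run it shares with Ighg2c, had 3, 14 and 22 reads in the IgG tumors and 4, 25 and 28 in the anti-PD-1 tumors, at most 0.44 FPKM. Ighg2c (ENSMUSG00000076612) had 9, 0 and 7 reads in the IgG tumors and 1, 29 and 4 in the anti-PD-1 tumors, so that most of its reads came from anti-PD-1 tumor 2. Ighg3 (ENSMUSG00000076615) was detected in 2 tumors, with 5 reads in IgG tumor 2 and 21 in anti-PD-1 tumor 3. Where Ighg3 had 0 reads, counting error alone allows up to 3 reads, or 0.0467 to 0.0543 FPKM, and for Ighg2c in IgG tumor 2 up to 0.0943 FPKM. Ighe had 5 reads in IgG tumor 2 and 0 elsewhere.

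The mix of heavy chain classes varied between the tumors of both groups. As a share of summed heavy chain constant FPKM, which is per length, Ighm made up 71.8%, 61.9% and 51.7% in IgG tumors 1 to 3 and 48.8%, 68.3% and 75.6% in anti-PD-1 tumors 1 to 3. Igha made up 15.7%, 23.4% and 29.6% in the IgG tumors and 46.8%, 7.47% and 9.72% in the anti-PD-1 tumors. Ighm thus held the largest share per length in every tumor. In anti-PD-1 tumor 1 Igha came close to it, and in reads, which are not per length, Igha was larger there (55.1% against 40.6%). The IgG subclasses together made up 9.93%, 6.72% and 11.3% in the IgG tumors and 2.83%, 22.8% and 12.5% in the anti-PD-1 tumors, lowest in the tumor with the largest Igha share. Summed over all heavy and light constant genes, the level came to 11.03, 53.5 and 15.02 FPKM in the IgG tumors and to 29.8, 16.98 and 30.6 FPKM in the anti-PD-1 tumors. These shares rest on between 254 and 944 heavy chain reads per tumor, and are given without a test.

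**Figure D1:**
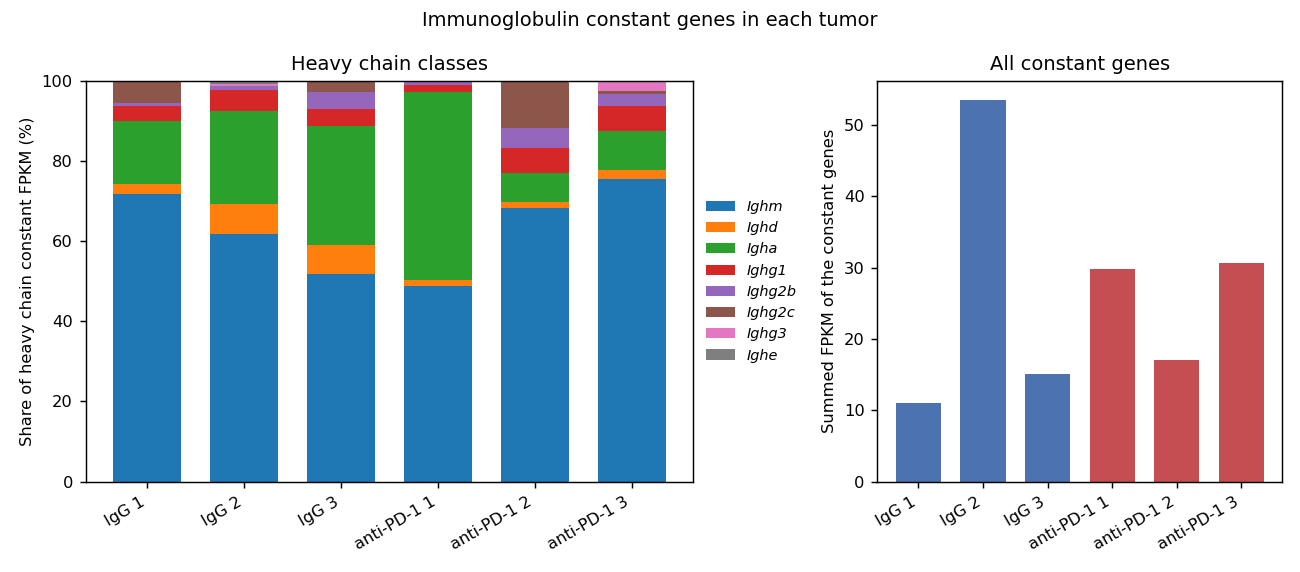
Left, the share of heavy chain constant FPKM (%) held by each class in each tumor. Right, the summed FPKM of all immunoglobulin constant genes, IgG tumors in blue and anti-PD-1 tumors in red. The Igha share is largest in anti-PD-1 tumor 1 (46.8%), and the summed level is highest in IgG tumor 2 (53.5 FPKM).

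Derl3 (ENSMUSG00000009092, chromosome 10 from 75893413 to 75895941, plus strand) was the only tested member whose groups did not overlap. It stood at 13.9, 18.3 and 17.0 FPKM in the IgG tumors (610, 877 and 827 reads) and at 11.7, 12.7 and 12.3 FPKM in the anti-PD-1 tumors (599, 616 and 580 reads). Every anti-PD-1 tumor thus lay below every IgG tumor. The means were 16.4 ± 2.27 FPKM (SD, n = 3) in IgG and 12.2 ± 0.501 FPKM (SD, n = 3) in anti-PD-1 tumors, where the exact permutation test of 3 against 3 cannot go below p = 0.1. The log2 fold change was -0.38 (standard error 0.16, unadjusted p = 0.0437, adjusted p = 0.397 from limma), which did not pass the threshold over all genes tested. With 1 tumor left out, the unadjusted limma p ran from 0.0215 without IgG tumor 1 to 0.120 without IgG tumor 2, and it was under 0.05 in the first case only. Over the 6 tumors Pearson's r between Derl3 and the other tested members was 0.13 for Igkc, 0.19 for Ighm, 0.32 for Ighg1, 0.35 for Igha and 0.56 for Jchain, given as a description. Derl3 had 580 to 877 reads per tumor, where Mzb1 had at most 6. Which cells of the tumors gave the Derl3 reads was not tested.

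Mzb1 (ENSMUSG00000024353) was near the limit of detection. It had 6, 5 and 5 reads in the IgG tumors and 2, 0 and 1 in the anti-PD-1 tumors, at most 0.301 FPKM. The groups did not overlap, on at most 6 reads per tumor, and 0 reads in anti-PD-1 tumor 2 allows up to 3 reads or 0.137 FPKM. In the annotation, 57.2% of the exon bases of Mzb1 also belong to SPATA24 on the same strand, so reads in that shared part could not be assigned to Mzb1 alone.

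**Figure D2:**
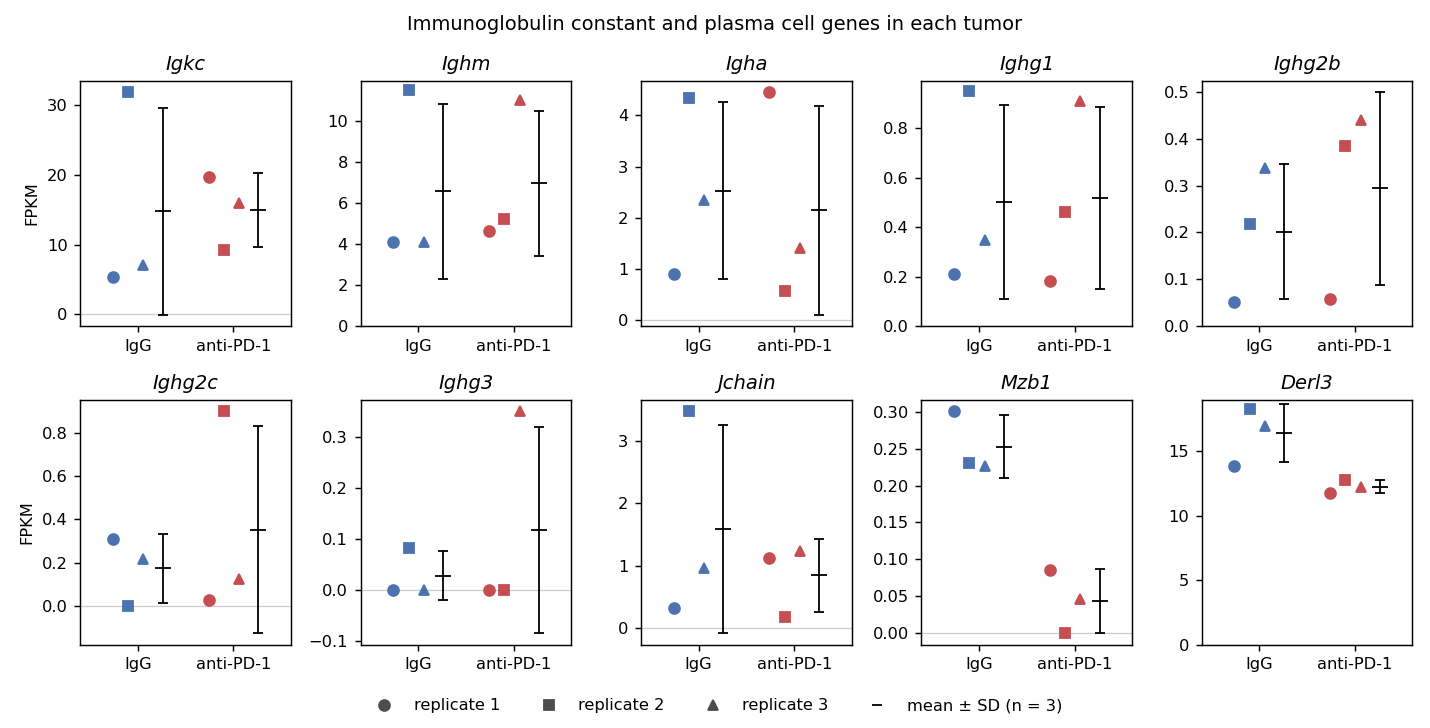
FPKM of the 10 members in each tumor, each panel on its own scale. Points are tumors (IgG blue, anti-PD-1 red, marker shape by replicate number) and bars are the mean ± SD (n = 3). IgG tumor 2 is highest in 5 panels (Igkc, Ighm, Ighg1, Jchain and Derl3), and the groups are separate in the panels of Mzb1 and Derl3.

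Over the 6 members tested, 1 (Derl3) had an unadjusted limma p under 0.05, where 12.3% of the 15069 genes tested did (6.05% lower and 6.22% higher). No member, and none of the 15069 genes, had an adjusted p under 0.05 (0% called, and 1848 genes at an unadjusted p under 0.05). Groups did not overlap in 1 of the 6 members tested (Derl3, lower in anti-PD-1 tumors), where 18.1% of the genes tested did not overlap in either direction with 8.75% lower and 9.3% higher. Of the 4 members not tested they did not overlap in Mzb1, on at most 6 reads. The mean log2 value was higher in anti-PD-1 tumors for 3 of the 6 members and lower for 3. The median log2 fold change of the 6 was -0.11, against 0.01 over all genes tested.

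**Figure D3:**
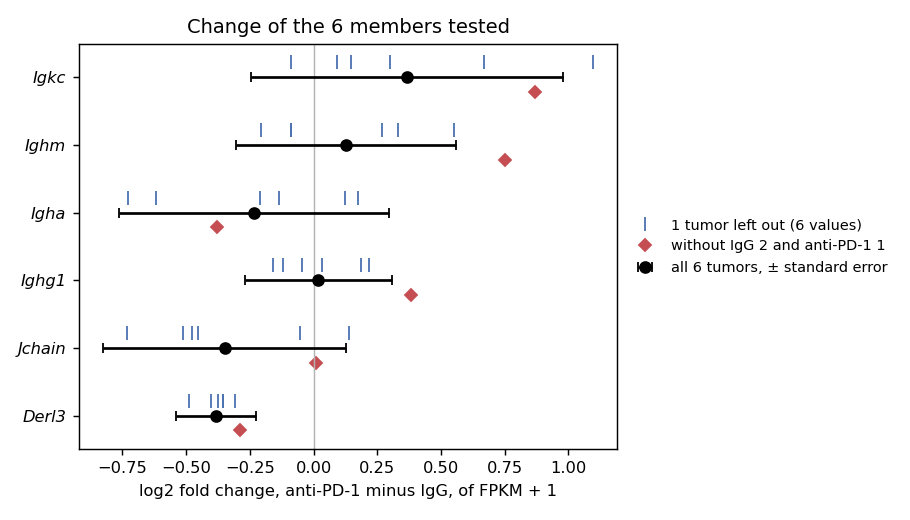
Log2 fold change of FPKM + 1, anti-PD-1 minus IgG, for the 6 members tested. Black points with bars give the estimate ± standard error over all 6 tumors, blue ticks the estimates with 1 tumor left out, and red diamonds those without IgG tumor 2 and anti-PD-1 tumor 1. The ticks fall on both sides of 0 for every member but Derl3, whose ticks lie between -0.49 and -0.31.

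The transcription factors and receptors of plasma cells were followed with a list of 11 genes, of which 8 were tested. Cd38 was the 1 gene with an unadjusted p under 0.05, and none had an adjusted p under 0.05. Groups did not overlap in 3 of the 8 tested (Cd38, Xbp1 and Eaf2), where 18.1% of all genes tested did not overlap and 12.3% had an unadjusted p under 0.05. The median log2 fold change of those tested was -0.11. Xbp1, which drives the secretory program of plasma cells and is also expressed by mammary epithelium, stood at 295, 323 and 320 FPKM in the IgG tumors and at 274, 175 and 263 FPKM in the anti-PD-1 tumors. All 3 anti-PD-1 tumors lay below the IgG tumors (log2 fold change -0.42, standard error 0.22, unadjusted p = 0.103, adjusted p = 0.480 from limma). Without anti-PD-1 tumor 2 its log2 fold change was -0.205, and with quantile normalization it was -0.53 (limma, unadjusted p = 0.0459). Cd38, an ectoenzyme of plasma cells and other leukocytes, stood at 4.67, 2.78 and 2.92 FPKM in the IgG tumors and at 6.26, 5.58 and 9.10 FPKM in the anti-PD-1 tumors. It was the reverse case, with every anti-PD-1 tumor above every IgG tumor (log2 fold change 0.84, standard error 0.24, unadjusted p = 0.00954, adjusted p = 0.344 from limma).

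Genes with a narrower expression in plasma cells were low. Tnfrsf17, the survival receptor BCMA, had 1 read in IgG tumor 1 and 0 in the other 5 tumors. Irf4, a factor that plasma cells need, ranged from 0.00797 to 0.223 FPKM, and Prdm1, the repressor of the B cell program, from 0.793 to 1.11 FPKM. Sdc1, the syndecan used as a plasma cell surface marker and also carried by epithelium, ranged from 18.2 to 57.9 FPKM with overlapping groups (log2 fold change 0.54, limma unadjusted p = 0.201). Single tumors moved this value, to 0.94 without anti-PD-1 tumor 2 (limma, unadjusted p = 0.0194, adjusted p at least 0.485 with any 1 tumor left out), to 0.23 without anti-PD-1 tumor 1 and to 0.30 without IgG tumor 3. Eaf2 was below 1 FPKM in every tumor (log2 fold change -0.19, limma unadjusted p = 0.353).

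The secretory pathway list held 15 genes of folding, disulfide exchange and degradation in the ER, and all 15 were tested. Of these, 11 had a higher and 4 a lower mean log2 value in anti-PD-1 tumors, where 49.2% of all genes tested had a lower mean, and the median log2 fold change was 0.06. None had an adjusted p under 0.05. At an unadjusted p under 0.05 there were 2 of the 15, both higher, against 12.3% of all genes tested, so that this count lay near the background. Sel1l, a partner of the Derlins in ER-associated degradation, stood at 48.0, 31.0 and 53.1 FPKM in the IgG tumors and at 75.04, 59.1 and 76.1 FPKM in the anti-PD-1 tumors. Its groups did not overlap (log2 fold change 0.69, standard error 0.24, unadjusted p = 0.0213, adjusted p = 0.362 from limma). Creld2 (log2 fold change 0.62, limma unadjusted p = 0.0497) and Syvn1, the ubiquitin ligase of the same complex (log2 fold change 0.28, limma unadjusted p = 0.0731), were also higher in every anti-PD-1 tumor than in any IgG tumor. Groups thus did not overlap in 3 of the 15 genes, against 18.1% of all genes tested in either direction (9.3% higher). With 1 tumor left out, the unadjusted p of Sel1l was above 0.05 in 3 of 6 cases and that of Creld2 in 4 of 6, and the log2 fold change of Creld2 ran down to 0.33 without anti-PD-1 tumor 3 and that of Sel1l to 0.45 without IgG tumor 2. Of 5 epithelial genes, Epcam and Erbb2 were higher in every anti-PD-1 tumor too. Krt8 and Krt18 had overlapping groups, and Cdh1 had a lower mean in anti-PD-1 tumors (log2 fold change -0.34) with overlap. The part of the epithelium in the values of the secretory genes was not tested. The direction of Derl3 was thus opposite to that of Sel1l and Syvn1, and the paralogs Derl1 (log2 fold change 0.31, limma unadjusted p = 0.136) and Derl2 (0.02, limma unadjusted p = 0.891) had overlapping groups.

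**Figure D4:**
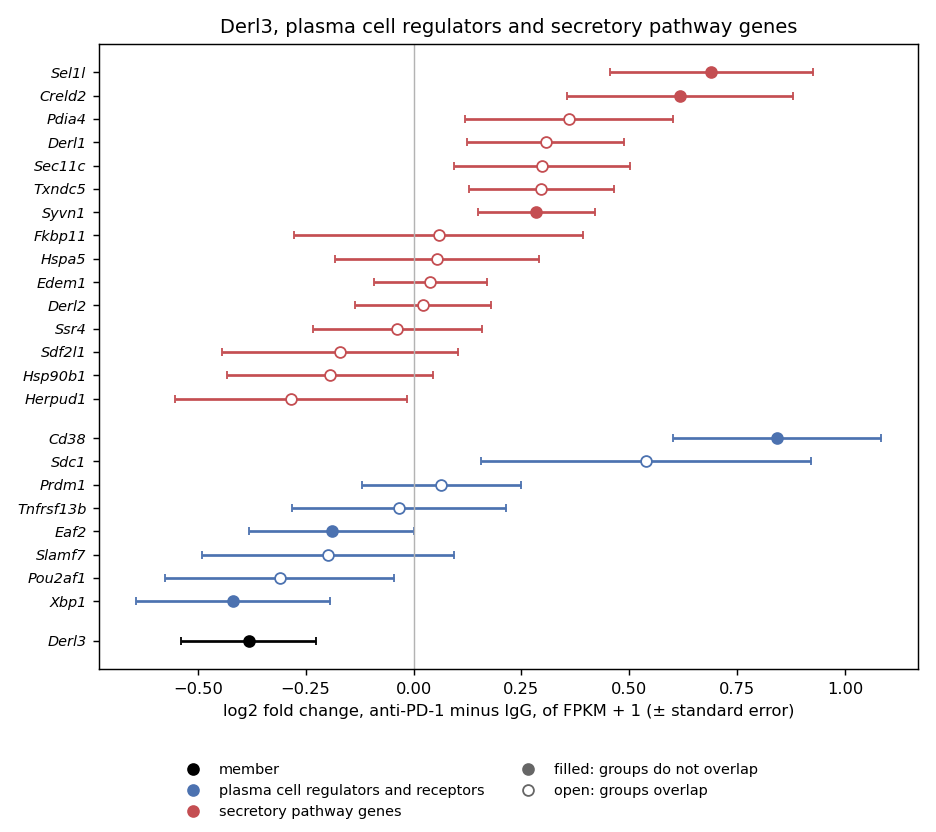
Log2 fold change of FPKM + 1, anti-PD-1 minus IgG, with standard errors for Derl3 (black), the 8 plasma cell regulators tested (blue) and the 15 secretory pathway genes (red). Filled points mark genes whose groups did not overlap. Derl3 (-0.38) and Xbp1 (-0.42) lie left of 0, and Sel1l (0.69) and Cd38 (0.84) lie right of it.

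Derl3 and several of these genes share a sequence in their promoters, the ER stress response element, searched on both strands as CCAAT, 9 bases of any kind and CCACG. Promoters of 300 bases (RefSeq, GRCm38.p6) were found for 2 of the 10 members, Jchain and Derl3, and for 13 of the 15 secretory genes. A match was present in Derl3 and in 4 secretory genes (Hspa5, Hsp90b1, Creld2 and Syvn1), and in 39 of 32851 promoters overall (0.119%). Each match is shown with 10 bases on both sides on the strand of the gene, element bases in capitals, because Derl3 shares the element with these secretory genes.
Derl3, chr10:75893232-75893270, plus strand: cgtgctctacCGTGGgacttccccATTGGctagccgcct
Hspa5, chr2:34772015-34772053, plus strand: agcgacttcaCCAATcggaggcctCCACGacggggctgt
Hsp90b1, chr10:86705628-86705666, minus strand: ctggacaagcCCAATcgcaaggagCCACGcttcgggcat
Hsp90b1, chr10:86705523-86705561, minus strand: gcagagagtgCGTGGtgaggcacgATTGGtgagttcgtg
Creld2, chr15:88819510-88819548, plus strand: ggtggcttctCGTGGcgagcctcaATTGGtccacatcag
Syvn1, chr19:6046522-6046560, plus strand: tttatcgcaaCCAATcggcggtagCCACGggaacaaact
In Derl3, in Creld2 and in the second Hsp90b1 match the element read on the opposite strand to the gene. The genes with a match did not share a direction, with log2 fold changes of -0.38 for Derl3, 0.06 for Hspa5, -0.19 for Hsp90b1, 0.62 for Creld2 and 0.28 for Syvn1. The octamer ATGCAAAT, known from immunoglobulin promoters and present in 1.74% of all promoters, was in neither the Jchain nor the Derl3 promoter.

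Variable gene reads were counted beside those of the constant genes, and did not match them in number. Heavy chain variable genes summed to 0, 47 and 7 reads in the IgG tumors and to 12, 5 and 9 in the anti-PD-1 tumors. The heavy chain constant genes held between 254 and 944 reads per tumor. Of 216 annotated heavy, kappa and lambda variable genes, 1, 11 and 1 reached 1 FPKM in IgG tumors 1 to 3 and 3, 1 and 4 in anti-PD-1 tumors 1 to 3 (p = 1.0 by a two-sided exact permutation test). Heavy chain variable genes reached 1 FPKM only in IgG tumor 2, where Ighv11-2 had 19 reads and Ighv1-9 had 11. Lambda variable genes did so only in the same tumor, with 13 reads each for Iglv1 and Iglv2. At 0.1 FPKM, 9, 31 and 28 genes were counted in the IgG tumors and 31, 11 and 32 in the anti-PD-1 tumors (p = 0.6 by the same exact test). The counts above 0 FPKM were the same, so this lower threshold took in every variable gene with any read.

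Of the kappa variable genes, Igkv14-111 had the highest mean FPKM, with a share that varied between tumors. It made up 93.9%, 14.01% and 25.7% of kappa variable FPKM in IgG tumors 1 to 3 and 54.7%, 79.6% and 91.5% in anti-PD-1 tumors 1 to 3, and in IgG tumor 2 another gene was higher. Igkv14-111 (chromosome 6 from 68256389 to 68256869, plus strand) stood at 26.8, 3.40 and 2.23 FPKM in the IgG tumors (217, 30 and 20 reads) and at 11.04, 16.2 and 194 FPKM in the anti-PD-1 tumors (104, 145 and 1698 reads). In anti-PD-1 tumor 3 it exceeded Igkc 12.2-fold in FPKM, and in IgG tumor 1 it did so 5.06-fold, so that it did not follow the constant gene. Its log2 fold change was 2.23 (standard error 1.19, unadjusted p = 0.102, adjusted p = 0.478 from limma), and none of its 50-base words occurred in another annotated transcript. Without Igkv14-111, kappa variable FPKM summed to 1.73, 20.9 and 6.43 in the IgG tumors and to 9.13, 4.16 and 18.0 in the anti-PD-1 tumors. As for Igkc, IgG tumor 2 was highest and IgG tumor 1 lowest. Other kappa genes stood out in single tumors, Igkv14-126 with 55 reads in IgG tumor 2 and Igkv3-4 with 47 in anti-PD-1 tumor 3.

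B cell genes were low, and 2 of 12 were tested. Cd79a, the signaling chain of the B cell receptor, had 3, 49 and 9 reads in the IgG tumors and 1, 0 and 18 in the anti-PD-1 tumors. Ms4a1 (CD20) had 0, 54 and 2 reads in the IgG tumors and 0, 12 and 0 in the anti-PD-1 tumors. IgG tumor 2 was highest for 9 of the 12 genes. The 2 tested, Cd37 (log2 fold change 0.08, limma unadjusted p = 0.773) and the adaptor Blnk (log2 fold change -0.33, limma unadjusted p = 0.199), had overlapping groups.

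Of 13 homing and survival factors, 6 were tested, with a median log2 fold change of 0.15. None had an adjusted p under 0.05, and 1 of the 6 (Tnfsf13, higher) had an unadjusted p under 0.05, against 12.3% of all genes tested. Tnfsf13 (APRIL), a survival factor of plasma cells also made by myeloid cells, stood at 16.0, 3.89 and 4.38 FPKM in the IgG tumors and at 14.1, 13.8 and 18.2 FPKM in the anti-PD-1 tumors. IgG tumor 1 lay within the anti-PD-1 range (log2 fold change 1.09, standard error 0.46, unadjusted p = 0.0480, adjusted p = 0.406 from limma). The log2 fold change was 1.67 without IgG tumor 1 and 0.76 without IgG tumor 2, and the unadjusted p was above 0.05 without any 1 of the 5 tumors other than IgG tumor 1. Ccl28, the ligand that draws IgA plasma cells to the mammary gland, had 23, 40 and 39 reads in the IgG tumors and 33, 12 and 9 in the anti-PD-1 tumors, and was not tested. Its receptor Ccr10 ranged from 0.226 to 1.22 FPKM with overlapping groups (log2 fold change -0.11, limma unadjusted p = 0.725).

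Of 8 genes of immunoglobulin transport and Fc receptors, 7 were tested. The mean log2 value was higher in anti-PD-1 tumors for 6 of them, and their median log2 fold change was 0.34. None had an adjusted p under 0.05, and 1 of the 7 (Fcer1g, higher) had an unadjusted p under 0.05, near the 12.3% of all genes tested. Fcer1g, the signaling chain shared by activating Fc receptors of myeloid cells, stood at 12.1, 22.0 and 16.1 FPKM in the IgG tumors and at 32.9, 24.6 and 22.2 FPKM in the anti-PD-1 tumors. The nearest tumors of the groups lay close, without overlap (log2 fold change 0.66, standard error 0.25, unadjusted p = 0.0327, adjusted p = 0.380 from limma). The unadjusted p was above 0.05 in 4 of 6 cases with 1 tumor left out. The 5 macrophage genes, among them Cd68, summed to between 36.2 and 43.0 FPKM in the IgG tumors and to between 47.9 and 66.8 FPKM in the anti-PD-1 tumors. Groups did not overlap in Cd68 alone (log2 fold change 0.76, adjusted p = 0.344 from limma), while Adgre1 (0.01, adjusted p = 0.994 from limma) and Csf1r (0.11, adjusted p = 0.900 from limma) overlapped. Without Cd68 the sums overlapped, at 20.9 to 27.8 FPKM in the IgG and 17.2 to 37.5 FPKM in the anti-PD-1 tumors. The part of these cells in the Fcer1g and Tnfsf13 values was not tested. Fcamr, an Fc receptor for IgA and IgM, had 5, 0 and 6 reads in the IgG tumors and 10, 22 and 10 in the anti-PD-1 tumors, and was not tested.

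Of 6 class switching genes, 3 were tested, all with a higher mean log2 value in anti-PD-1 tumors and with a median log2 fold change of 0.67. None had an adjusted p under 0.05, and 1 of the 3 (Tgfb1, higher) had an unadjusted p under 0.05, against 12.3% of all genes tested (6.22% higher). Tgfb1, which directs switching to IgA among many other roles, stood at 10.2, 4.85 and 10.3 FPKM in the IgG tumors and at 20.8, 11.5 and 19.7 FPKM in the anti-PD-1 tumors (log2 fold change 0.98, standard error 0.33, unadjusted p = 0.0198, adjusted p = 0.357 from limma). Its unadjusted p was above 0.05 in 3 of 6 cases with 1 tumor left out. Igha did not follow it. Igha was highest in anti-PD-1 tumor 1, where Tgfb1 was highest too, but nearly as high in IgG tumor 2, where Tgfb1 was lowest.

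Salivary gland genes were highest in the tumors with the highest Igkc and Igha, which did not hold for Ighm, Ighg1, Jchain and Derl3. The 19 salivary gland genes of a list written after these values were seen summed to 103, 5566 and 106 FPKM in the IgG tumors and to 2360, 1.16 and 2.76 FPKM in the anti-PD-1 tumors, and 5 of the 19 were at 0 in all tumors. Amy1, the salivary amylase, stood at 21.2, 1044 and 0.416 FPKM in the IgG tumors and at 260, 0.323 and 0.183 FPKM in the anti-PD-1 tumors, and Prol1 alone was highest in IgG tumor 3. IgG tumor 2 and anti-PD-1 tumor 1 had the highest sums. Ighg1 and Derl3 were lowest in anti-PD-1 tumor 1, Ighm was higher in both other anti-PD-1 tumors, and Jchain was higher in anti-PD-1 tumor 3. For Jchain this rests on 74 reads in anti-PD-1 tumor 3 against 72 in anti-PD-1 tumor 1. Igkc stood at 16.0 FPKM in anti-PD-1 tumor 3, not far below the 19.7 FPKM of anti-PD-1 tumor 1. The salivary gland genes summed to 2.76 and 2360 FPKM in these 2 tumors.

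Of 8 T cell genes, 5 were highest in IgG tumor 2, with Cd3g at 94 reads there and 9 to 29 elsewhere, and the 8 summed to 6.43 FPKM there and to between 1.65 and 2.89 FPKM elsewhere. Groups did not overlap in 2 of the 8, both lower in anti-PD-1 tumors, where 18.1% of all genes tested did not overlap (8.75% lower), though only 1 of the 8 passed the filter. These were Cd3d, with 12, 46 and 9 reads in the IgG tumors and 3, 0 and 3 in the anti-PD-1 tumors, and Lck, the 1 T cell gene tested (log2 fold change -0.45, adjusted p = 0.482 from limma). Of 9 lymph node genes, 5 were highest in IgG tumor 2, while Ccl21a and Ccl19, the chemokines of lymph node stroma, were at 0 in all 6 tumors. Groups did not overlap in 1 of the 9, Fcer2a, which did not pass the filter. Fcer2a had 10, 13 and 7 reads in the IgG tumors and 2, 4 and 1 in the anti-PD-1 tumors. The lymph node genes summed to between 0.338 and 15.4 FPKM, of which Glycam1, also a milk gene, made up most at its highest. The 4 skeletal muscle genes summed to 0.104, 110 and 3.8 FPKM in the IgG tumors and to 62.6, 116 and 0.295 FPKM in the anti-PD-1 tumors, and did not follow the members in anti-PD-1 tumor 2. The part of these tissues in the immunoglobulin values was not tested.

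**Figure D5:**
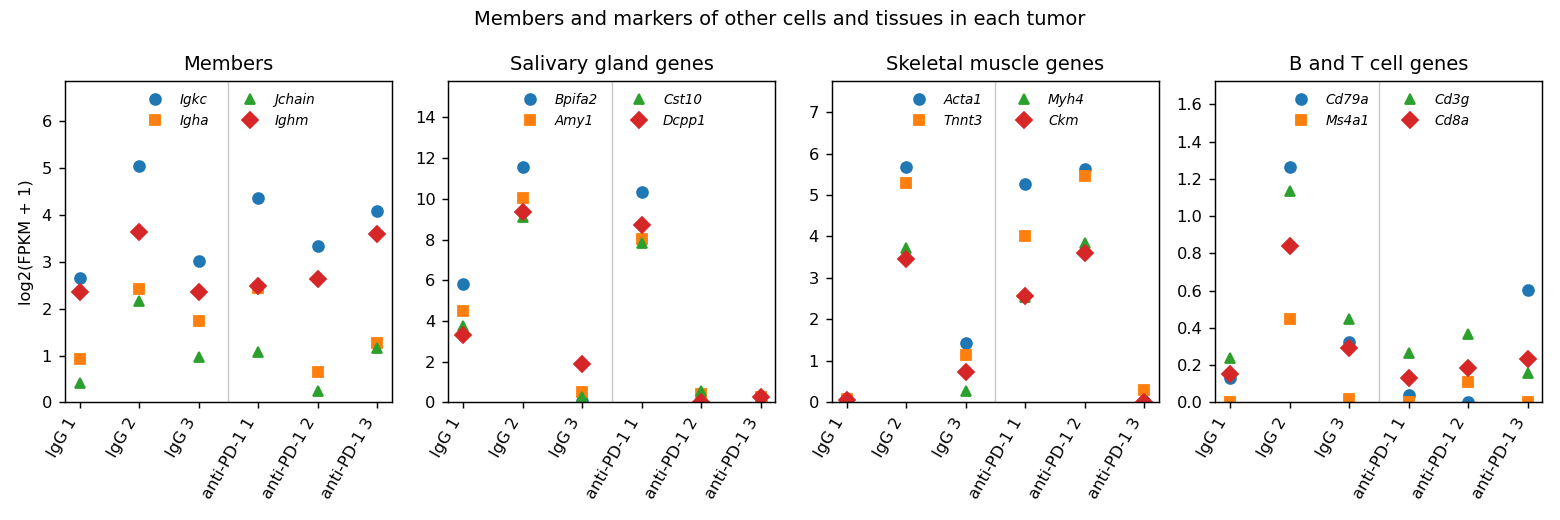
Log2(FPKM + 1) of 4 members, 4 salivary gland genes, 4 skeletal muscle genes and 4 B and T cell genes in each tumor, each panel on its own scale, with a line between the IgG and the anti-PD-1 tumors. Igkc and Igha are high in IgG tumor 2 and anti-PD-1 tumor 1, as are the salivary gland genes (Bpifa2 at 3033 and 1273 FPKM), while Ighm is high in IgG tumor 2 and anti-PD-1 tumor 3. In anti-PD-1 tumor 3, Igkc is at 16.0 FPKM, against 19.7 FPKM in anti-PD-1 tumor 1, and Bpifa2 is at 0 FPKM.

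Without IgG tumor 2 and anti-PD-1 tumor 1, 2 tumors per group remained. The log2 fold change was then 0.87 for Igkc (limma, unadjusted p = 0.0471, adjusted p = 0.783), 0.75 for Ighm, 0.38 for Ighg1, -0.38 for Igha, 0.01 for Jchain and -0.29 for Derl3 (limma, unadjusted p = 0.223). Groups did not overlap in 4 of the 6 members tested (Igkc, Ighm, Ighg1 and Derl3), where 38.1% of the genes tested did not overlap among these 4 tumors. Without IgG tumor 2 alone, 3 of the 6 (Igkc, Ighm and Derl3) did not overlap, against 22.9% of the genes tested. Of the members not tested, Ighg2b did not overlap without both tumors, and Mzb1 in either case.

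The genes whose pattern over the 6 tumors was most like the mean of the 6 tested members were Cd300lf (Pearson's r = 0.977), Egr1, Il2rg, Samd5, Ccl17, Rasal3, Ubtd2, Lyz1, Fhod1 and Gm11613 (r = 0.953). Each was highest in IgG tumor 2, as was the mean of the members. Ccl17, a chemokine of dendritic cells, stood at 4.70 FPKM there and at 0.619 to 1.80 FPKM in the other tumors. Without IgG tumor 1 or without IgG tumor 2, 0 of the 10 were among the 10 most like genes, and 1 to 4 were when another tumor was left out.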

How the data were processed

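RNAseq of 3 IgG and 3 anti-PD-1 tumors of NeuT/ATTAC mice was analysed, grouped by the labels. Each tumor has its own file of FPKM values that the authors deposited, with 54532 Ensembl IDs. The submitters' processing notes name FastQC 0.11.9, cutadapt 3.5, Bowtie2 2.4.1, RSEM 1.3.1, DESeq2 1.36.0 and R 4.1, and how the FPKM values were made is not given in the sources used here. Of the IDs, 54495 matched GENCODE M21 (GRCm38). FPKM times exon length gave whole reads, within 0.1, for 97.0% to 97.3% of the detected values of a tumor, and these reads are quoted here. For Mzb1 the transcript length gave whole reads and the merged exon length did not.

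FPKM values were divided by median-of-ratios factors (1.00 to 1.01), and log2(FPKM + 1) was used. The filter was a mean of at least 0.5 FPKM (15069 genes). Tests were run in R 4.3.3 with limma 3.58.1 (eBayes with an intensity trend, two-sided, Benjamini-Hochberg adjustment). The fold change understates the change of low genes. The script was tested on simulated data. Tables were handled in Python 3.11.15 with pandas 2.3.3 and numpy 2.4.6, and figures drawn with matplotlib 3.10.9. Promoters came from RefSeq (GRCm38.p6).

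The members and lists were chosen with earlier results of these data known. Genes were named by rule. These were all members, list genes with an unadjusted p under 0.05 or groups that did not overlap (at most 4 per list), a set of defining genes, the highest markers, the 3 highest variable genes per locus and the 10 most like genes. Genes beyond these (Derl1, Derl2, Hspa5, Hsp90b1, Cd37, Blnk, Fcamr, Cd3g, Prol1, Cdh1 and Fcer2a among them) were named after their values were seen.

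Alternatives were 0.1 added to the FPKM, no filter, a mean of at least 2 FPKM, quantile normalization, unscaled FPKM, eBayes with no trend, a replicate block, leaving out each tumor, and limma's voom on recovered reads with trimmed mean of M values scaling. Leaving out IgG tumor 2 with anti-PD-1 tumor 1, leaving out Igkv14-111, and the salivary gland list were added after seeing the data.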

Additional observations from a re-analysis of the deposited data

How the results depend on the processing

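Direction and side of an unadjusted p of 0.05 were compared for the 19 single genes tested, in 279 alternatives. Both were kept in 215, the direction was kept with the p moved above 0.05 in 44 and below it in 5, and the direction reversed in 15. In 1 of the reversed cases, Pigr without anti-PD-1 tumor 2, the p was also under 0.05. None gave these genes an adjusted p under 0.05, the smallest being 0.0601. The causes were not tested.

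With 1 tumor left out, log2 fold changes ran from -0.09 (without IgG tumor 1) to 1.096 (without IgG tumor 2) for Igkc, from -0.21 to 0.55 for Ighm, from -0.73 to 0.17 for Igha, from -0.16 to 0.22 for Ighg1, from -0.73 to 0.14 for Jchain, from -0.36 to 0.07 for Ccr10 and from -0.63 to 0.51 for Pigr. Reversals among them came without IgG tumor 1 (Igkc -0.0901, Ighm -0.0867, Ighg1 -0.12), IgG tumor 2 (Igha 0.12, Jchain 0.14), IgG tumor 3 (Ighm -0.0886, Ighg1 -0.0446, Pigr -0.0584), anti-PD-1 tumor 1 (Ccr10 0.0681), anti-PD-1 tumor 2 (Igha 0.17, Pigr -0.63) and anti-PD-1 tumor 3 (Ighm -0.21, Ighg1 -0.16). Without both IgG tumor 2 and anti-PD-1 tumor 1, Jchain (0.00847) and Ccr10 (0.147) reversed, and Ighm was at 0.752, Ighg1 at 0.384 and Pigr at 0.622.

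The count of members at an unadjusted p under 0.05 was 2 with no filter (Mzb1 and Derl3), 0 by eBayes without the trend, 0 by voom on recovered reads, and 0 to 1 with 1 tumor left out. The count of members whose groups did not overlap was 2 to 4 with 1 tumor left out and 6 without IgG tumor 2 and anti-PD-1 tumor 1. The median log2 fold change of the members ran from -0.31 to 0.18 with 1 tumor left out. That of the plasma cell regulators ran from -0.16 to 0.06 and was 0.54 at a mean of at least 2 FPKM and 0.063 without IgG tumor 2 and anti-PD-1 tumor 1. The median of the secretory genes ran from 0.041 to 0.26 and was 0.27 without those 2 tumors. The median of the homing and survival factors was 0.36 with 0.1 added to the FPKM, 0.48 at a mean of at least 2 FPKM and 0.37 by voom, and ran from 0.044 to 0.18 with 1 tumor left out. That of the transport and Fc receptor genes ran from 0.15 to 0.43 and that of the class switching genes from 0.42 to 0.88. Of the 10 most like genes, 0 to 4 were kept with 1 tumor left out.

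With the replicate number as a block, 0 members had an unadjusted p under 0.05 (Derl3, limma adjusted p = 0.454), and the unadjusted calls of Creld2 and Fcer1g were lost. Deviations of tumors with the same number from their group means correlated at -0.16, 0.01 and 0.19, so the numbers were not treated as pairs.

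Depth limits the low members. At these library sizes, Ighg2b, Ighg2c, Ighg3 and Mzb1 rest on 29 reads or fewer per tumor.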
